A study of Mus musculus with 4 samples.

Results

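The proteasome subunit genes were followed in Flk-1+ cells derived from mouse embryonic stem (ES) cells, with and without activity of a Hoxb6 reporter. Members were all genes whose symbol begins with Psm, a letter from a to g and a number. The pattern found 50 genes among 20660 named genes on the array, of which 48 encode proteasome subunits, activators, an inhibitor or assembly factors and 2 (Psmc3ip and Psme3ip1) encode other proteins. This set of genes was chosen with earlier results of these data known, so its counts below are not those of an unselected set. Of several probes for a gene, the one with the highest mean log2 signal over all arrays represented it. No difference between the fractions entered that choice of probe. Of the 48 genes, 46 passed the filter on dim probes, each with a signal well above background on all 4 arrays, and were tested. Psma8, the alpha subunit of the testis proteasome, and Psmb11, the thymus-restricted catalytic subunit, were not well above background on any array and have no measured change.

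The cells were EB5 ES cells into which a Hoxb6-Venus reporter had been introduced, where the fluorescent protein Venus reports activity of the homeobox gene Hoxb6. They had differentiated for 6 days on OP9 stromal feeder cells, which are themselves mouse cells, and were sorted by Flk-1 antibody staining and Venus fluorescence. Both groups were therefore Flk-1+ cells of the same line and culture protocol: the Venus-negative fraction (2 arrays) and the Venus-positive fraction (2 arrays). Total RNA, labelled with Cy3, was hybridised to single-colour Agilent arrays, and with so few arrays precision is low throughout. The labels do not say whether replicates came from separate cultures. A p-value therefore reflects the variation among these 4 samples alone, and that variation may be technical. The 4 arrays lay on 1 slide. Replicate number coincided with the row on the slide and fraction with the column, so that column and fraction cannot be told apart.

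The proteasome is the large protease that degrades ubiquitin-tagged proteins in the cytoplasm and nucleus. Its 20S core is a barrel of alpha rings, which gate the entrance, around beta rings, which hold the proteolytic sites. The 19S regulatory particle caps the barrel, recognises ubiquitin chains, removes them and unfolds the substrate with a ring of ATPases. In immune cells and after interferon exposure the constitutive catalytic subunits Psmb5, Psmb6 and Psmb7 are exchanged for Psmb8, Psmb9 and Psmb10, which form the immunoproteasome and favour the peptides presented by MHC class I. Proteasome subunits are needed in every cell and stand in fixed proportions within the complex.

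Values are log2 processed signals relative to the 75th percentile of the same array, so 0 marks the signal of that percentile, and they cannot be set against each other between genes. A change is the Venus-positive minus the Venus-negative mean of these log2 signals, given with its moderated standard error (SE) from limma or its 95% interval. The threshold for a call was an adjusted p of 0.05 (Benjamini-Hochberg over all 23548 genes and unnamed probes tested).

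The constitutive proteasome genes lay slightly lower in Venus-positive cells, by similar amounts in the core and the regulatory particle, and none of them passed the test. Of the 31 constitutive genes of the 20S core and 19S particle, 29 had a negative change. Their median was -0.16, a Venus-positive signal at 89.3% of the Venus-negative one, against a median below 0.01 in size over all features tested. A deeper difference was measured for 2 of the 3 immunoproteasome genes, Psmb8 (-0.91) and Psmb10 (-0.87), which also missed the threshold. In all, 0 of the 46 tested proteasome genes were called in limma in either direction, where 2.14% of all features were called, 0.777% as higher and 1.36% as lower in Venus-positive cells. At an unadjusted p under 0.05, 2 proteasome genes were lower (Psmb8 and Psmb10) and 0 higher, against 11.4% and 12.3% of all features.

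**Figure D1:**
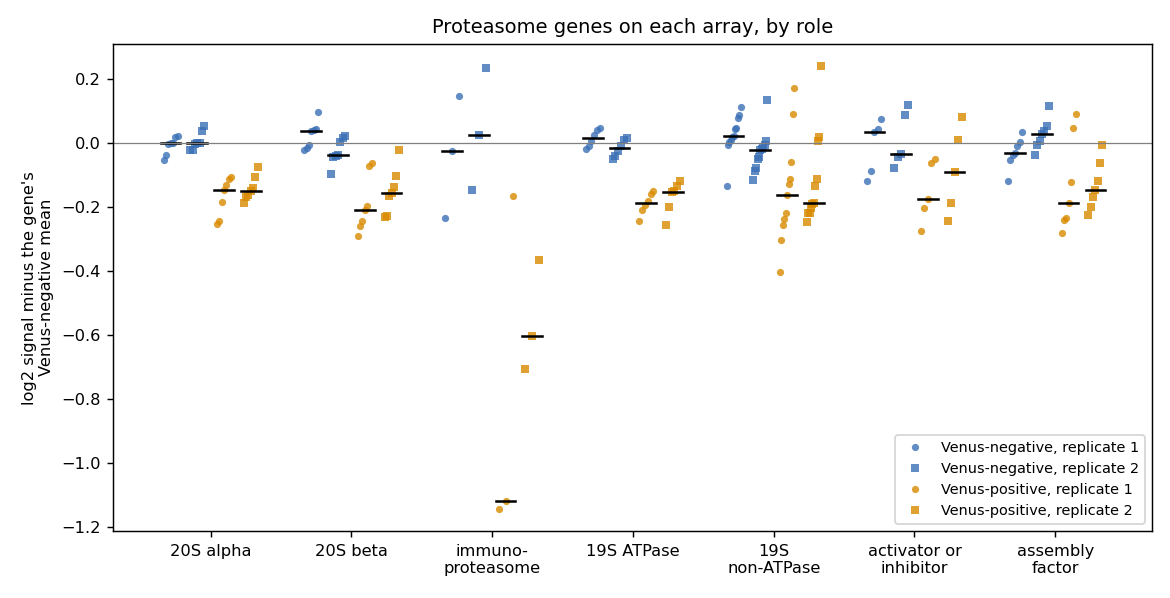
Log2 signal of each of the 46 tested proteasome genes on each array, minus that gene's mean over the Venus-negative arrays (vertical axis), by role (horizontal axis); circles are replicate 1, squares replicate 2, and black bars are medians over the genes of a role. The medians of the 31 constitutive 20S and 19S genes lie at -0.18 and -0.15 on the Venus-positive arrays, and the immunoproteasome medians at -1.12 and -0.60.

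The separation between the fractions was small in size and regular. For 37 of the 46 genes both Venus-positive arrays lay below both Venus-negative arrays, for 2 they lay above, and for 7 the fractions overlapped. Over all features tested, 28.4% were separated in the lower and 29.1% in the higher direction, and 49.6% had a negative change. Replicates also lay more tightly together for the proteasome genes than over all features, and features of similar brightness were not compared. The median absolute log2 difference between the replicates of a fraction was 0.07 (Venus-negative) and 0.06 (Venus-positive) over these genes, against 0.18 and 0.16 over all features. The part of this tightness in the number of separated genes was not tested. The number of separated genes also depended on how arrays were aligned. With each array centred on its median, all features shifted up by 0.07 and the constitutive median stood at -0.09. With that centring 20 of the 46 genes were separated downward, against 20.7% of all features. Counts by role below are those of the reported alignment. Changes of the sizes seen here were common in these data: 53.2% of all features had a change within the range spanned by the 31 constitutive genes, from -0.30 to 0.21.

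The 7 alpha subunits of the 20S core, which form its outer rings, had changes between -0.21 and -0.09, with a median of -0.14. All 7 were separated downward, against 28.4% of all features. Psma2 had signals of 6.92 and 7.03 in Venus-negative cells and 6.73 and 6.79 in Venus-positive cells. Its change was -0.21 ± 0.10 SE (limma adjusted p = 0.307). Psma4 had signals of 4.08 and 4.16 in Venus-negative and 3.87 and 3.95 in Venus-positive cells. Its change was -0.21 ± 0.10 SE (limma adjusted p = 0.313), and a second probe of the gene gave -0.19. In both genes the lower Venus-negative array stood above the higher Venus-positive array. Psma1, Psma3, Psma6 and Psma7 had changes between -0.15 and -0.13, and Psma5 had the smallest at -0.09.

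Of the 7 constitutive beta subunits, 6 were separated downward, against 28.4% of all features. The median change of the 7 was -0.18. The catalytic subunits are among them. Psmb5, which carries the chymotrypsin-like site, had signals of 8.10 and 8.11 in Venus-negative and 7.91 and 7.97 in Venus-positive cells, a change of -0.17 (95% interval -0.44 to 0.11). Psmb6, with the caspase-like site, had 7.37 and 7.29 against 7.12 and 7.17, a change of -0.18 (-0.46 to 0.10). Psmb7, with the trypsin-like site, had 5.33 and 5.25 against 5.05 and 5.07, a change of -0.24 (-0.51 to 0.04). The 3 intervals include 0 and overlap each other. Among the structural beta subunits, Psmb2 had the largest change of the core, with signals of 3.28 and 3.09 in Venus-negative and 2.90 and 2.96 in Venus-positive cells (-0.26 ± 0.12 SE, limma adjusted p = 0.292). Its change was -0.16 without Venus-negative replicate 1 and -0.36 without Venus-negative replicate 2. Psmb4 had a change of -0.21 and Psmb3 of -0.09. Psmb1 was the single core gene whose fractions overlapped, at -0.04, and it turned to 0.03 with each array centred on its median.

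**Figure D2:**
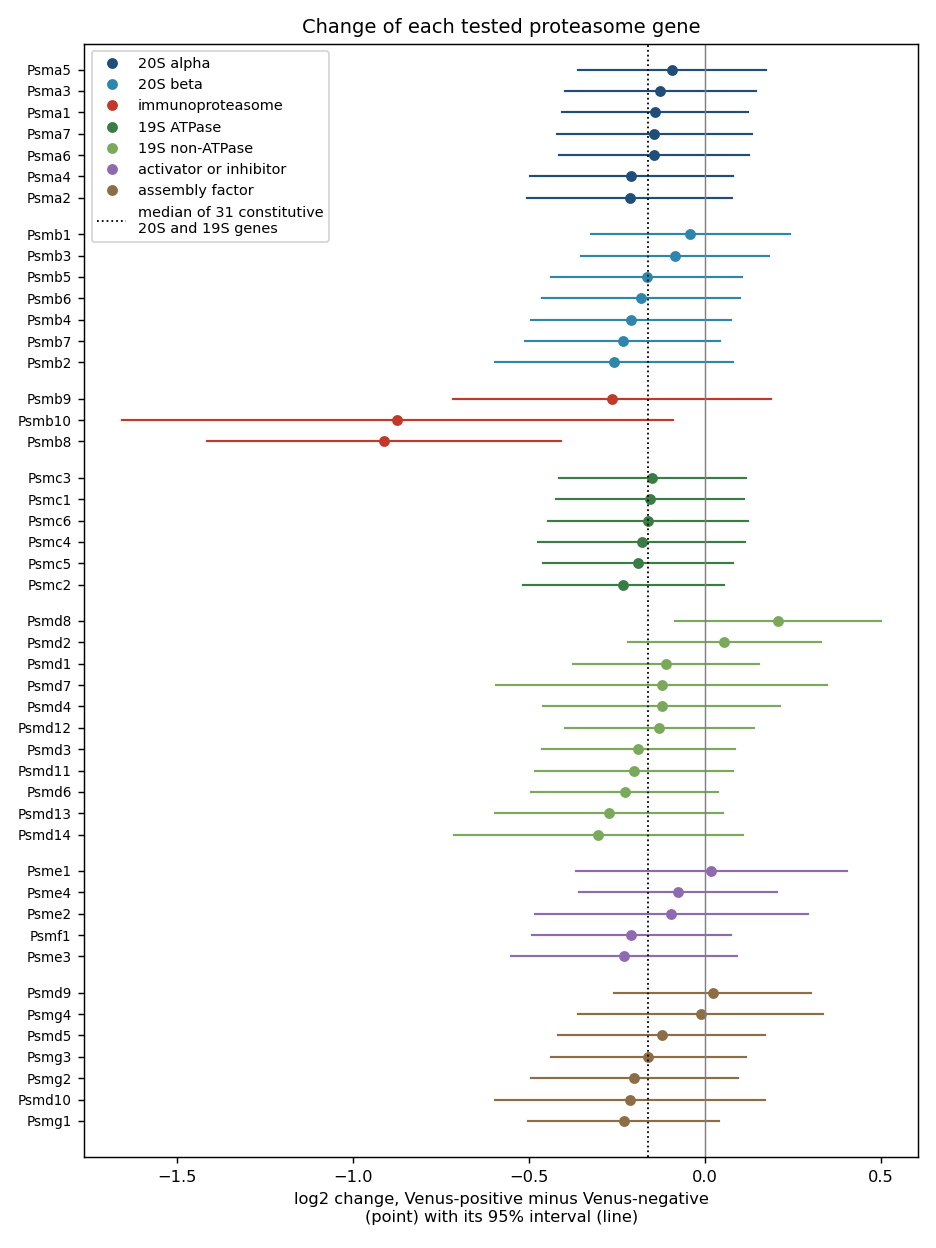
Log2 change between the fractions for each of the 46 tested proteasome genes (points) with its 95% interval (lines), grouped by role; the solid line marks 0 and the dotted line the median of the 31 constitutive 20S and 19S genes (-0.16). The intervals of 44 genes include 0, and those of Psmb8 and Psmb10 lie below it.

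In the regulatory particle, the products of the 6 ATPase genes Psmc1 to Psmc6 unfold substrates and thread them into the core. All 6 genes were separated downward, against 28.4% of all features. Their changes ran from -0.23 to -0.15, with a median of -0.17. Psmc2 had signals of 5.96 and 5.86 in Venus-negative and 5.70 and 5.66 in Venus-positive cells, a change of -0.23 ± 0.10 SE (limma adjusted p = 0.275). Psmc5 had 5.06 and 5.01 against 4.86 and 4.84, a change of -0.19 ± 0.10 SE (limma adjusted p = 0.322). Between these ATPase genes the changes varied by less than their standard errors.

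The 11 non-ATPase genes of the particle varied more, from -0.30 to 0.21. Of the 11, 7 were separated downward and 2 upward, against 28.4% and 29.1% of all features. Psmd14, the deubiquitinase that removes ubiquitin chains from the substrate, had signals of 3.09 and 2.86 in Venus-negative and 2.57 and 2.78 in Venus-positive cells. Its change of -0.30 (95% interval -0.71 to 0.11, limma adjusted p = 0.305) came with wide replicates, and the fractions were separated by less than 0.1. Without Venus-negative replicate 1 it was -0.19, and without Venus-negative replicate 2 it was -0.42. Psmd13, a scaffold subunit of the lid, had 4.71 and 4.53 against 4.32 and 4.38, a change of -0.27 (-0.60 to 0.05, limma adjusted p = 0.264). Psmd6, Psmd11, Psmd3, Psmd12 and Psmd1, lid and base subunits, were also separated downward, with changes of -0.23, -0.20, -0.19, -0.13 and -0.11. The ubiquitin receptor Psmd4 and the lid subunit Psmd7 each stood at -0.12 with overlapping fractions.

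The 2 constitutive genes with a positive change were both in the non-ATPase group and are named after their values were seen. Psmd8, a lid subunit, had signals of 4.50 and 4.40 in Venus-negative and 4.62 and 4.69 in Venus-positive cells. Its change was 0.21 (95% interval -0.09 to 0.50, limma adjusted p = 0.321), a Venus-positive signal at 115% of the Venus-negative one, and both Venus-positive arrays lay above both Venus-negative arrays. Psmd2, the large scaffold subunit of the base, had 5.16 and 5.15 against 5.24 and 5.17, a change of 0.05 (-0.22 to 0.33). Each was represented by 1 probe, so no second probe bears on the sign, which was positive under median, quantile, normexp and cyclic loess processing too.

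Across the 31 constitutive genes the lowest bound of any 95% interval was -0.71 and the highest 0.50, so for none of them was a change of 2-fold in either direction within the interval. Each of these intervals also includes 0. In bulk RNA, fewer cells of a type and less RNA per cell cannot be told apart.

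The 3 immunoproteasome genes were lower on both Venus-positive arrays than on both Venus-negative arrays, to different degrees. Over all features, 28.4% were separated in that direction. Psmb8 (LMP7), the inducible counterpart of Psmb5, had signals of -1.08 and -1.02 in Venus-negative and -2.17 and -1.76 in Venus-positive cells. The Venus-negative replicates lay close together, and the nearer Venus-positive array was still well below them. The change was -0.91 ± 0.18 SE, a Venus-positive signal at 53.1% of the Venus-negative one (95% interval on the log2 scale -1.42 to -0.41), with an unadjusted p of 0.00775 in limma and an adjusted p of 0.0987. Over its alternatives, the adjusted p of Psmb8 ran from 0.0643 to 0.253. Of all features tested, 4.87% had a change as low or lower.

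Psmb10 (MECL-1), the counterpart of Psmb7, had signals of 5.32 and 5.78 in Venus-negative and 4.41 and 4.95 in Venus-positive cells. Its replicates spread more than those of Psmb8: in each fraction the replicate 2 array, in row 2 of the slide, was the brighter, by 0.47 and 0.54. Within a row the fractions differed by -0.91 (row 1) and -0.84 (row 2). The change was -0.87 ± 0.28 SE, or 54.5% of the Venus-negative signal (95% interval -1.66 to -0.09, limma adjusted p = 0.183). Its adjusted p ran from 0.0509 to 0.441 over the alternatives.

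Psmb9 (LMP2), the counterpart of Psmb6, had signals of -2.12 and -2.42 in Venus-negative and -2.43 and -2.63 in Venus-positive cells. The nearest arrays of the fractions differed by less than 0.1, and the change was -0.26 (95% interval -0.72 to 0.19, limma adjusted p = 0.393). Leaving out a Venus-negative array gave -0.12 (without replicate 1) or -0.41 (without replicate 2), and leaving out a Venus-positive array gave -0.36 (without replicate 1) or -0.16 (without replicate 2). The intervals of Psmb8, Psmb9 and Psmb10 overlap.

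Each immunoproteasome gene was then read against the constitutive gene of the same catalytic position on the same array, which removes any factor common to an array. The log2 signal of Psmb8 minus that of Psmb5 was -9.18 and -9.14 in Venus-negative and -10.08 and -9.73 in Venus-positive cells, a difference of -0.75. For Psmb10 minus Psmb7 it was -0.02 and 0.53 against -0.65 and -0.12, a difference of -0.64. For Psmb9 minus Psmb6 it was -9.49 and -9.71 against -9.55 and -9.81, a difference of -0.08. The fractions did not overlap for the pairs of Psmb8 and Psmb10 and overlapped for that of Psmb9. The exact two-sided permutation p over the 4 arrays was 0.333, 0.333 and 0.667 in that order, and 0.333 is the smallest this design allows. The Psmb10 difference depended on single arrays: dropping a Venus-negative array gave -0.91 (replicate 1 dropped) or -0.36 (replicate 2 dropped), and dropping a Venus-positive array gave -0.38 (replicate 1 dropped) or -0.90 (replicate 2 dropped). The Psmb9 difference turned to 0.03 without Venus-negative replicate 1 and to 0.04 without Venus-positive replicate 2.

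**Figure D3:**
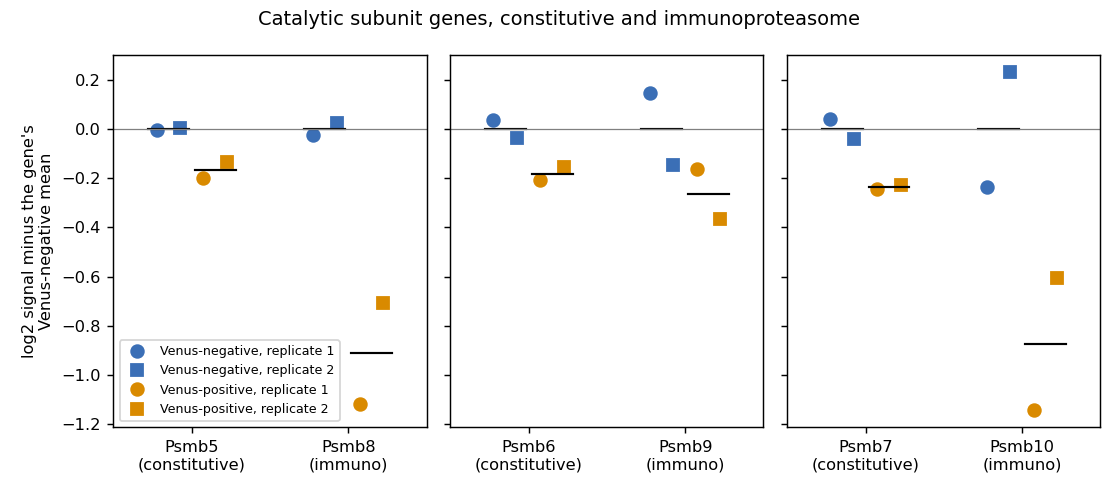
Log2 signal of the 6 catalytic subunit genes on each array, minus the gene's Venus-negative mean (vertical axis), with each constitutive gene beside its immunoproteasome counterpart; bars are fraction means. The Venus-positive means of Psmb8 and Psmb10 lie at -0.91 and -0.87, and that of Psmb9 at -0.26.

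Promoters of catalytic genes are shown because Psmb8 and Psmb10 are where the fractions differed most. Beside them stand Psmb9 and the constitutive genes Psmb5 and Psmb6, which differed less. No window was at hand for Psmb7, the constitutive counterpart of Psmb10. The windows run from 250 bases before to 50 bases after the gene start (RefSeq, build GRCm38.p6, 5′ to 3′ on the gene's strand): chr17:34197945-34198244 on the plus strand for Psmb8, chr17:34187281-34187580 on the minus strand for Psmb9, chr8:105938343-105938642 on the minus strand for Psmb10, chr14:54617946-54618245 on the minus strand for Psmb5 and chr11:70525107-70525406 on the plus strand for Psmb6. Capitals mark a match to TTCNNNGAA, the gamma interferon activation site bound by STAT factors, in Psmb8, and to TGACNNNGC, the antioxidant response element bound by Nfe2l1 and Nfe2l2, in Psmb5 and Psmb6.
Psmb8: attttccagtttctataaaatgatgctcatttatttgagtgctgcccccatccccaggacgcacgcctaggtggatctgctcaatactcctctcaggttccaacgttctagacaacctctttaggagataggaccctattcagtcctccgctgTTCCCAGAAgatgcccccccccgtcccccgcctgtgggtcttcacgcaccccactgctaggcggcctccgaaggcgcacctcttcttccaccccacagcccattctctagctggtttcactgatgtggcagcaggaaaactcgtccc
Psmb9: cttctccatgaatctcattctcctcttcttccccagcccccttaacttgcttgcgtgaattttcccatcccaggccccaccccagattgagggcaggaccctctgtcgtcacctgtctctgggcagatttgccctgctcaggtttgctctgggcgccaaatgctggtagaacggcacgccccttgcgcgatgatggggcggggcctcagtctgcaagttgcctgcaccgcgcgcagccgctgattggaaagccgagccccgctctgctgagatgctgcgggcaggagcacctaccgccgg
Psmb10: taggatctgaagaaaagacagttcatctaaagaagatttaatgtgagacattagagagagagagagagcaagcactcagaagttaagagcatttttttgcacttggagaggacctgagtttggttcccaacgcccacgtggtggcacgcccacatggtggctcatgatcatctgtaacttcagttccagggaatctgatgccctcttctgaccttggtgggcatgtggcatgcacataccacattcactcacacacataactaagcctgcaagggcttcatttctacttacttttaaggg
Psmb5: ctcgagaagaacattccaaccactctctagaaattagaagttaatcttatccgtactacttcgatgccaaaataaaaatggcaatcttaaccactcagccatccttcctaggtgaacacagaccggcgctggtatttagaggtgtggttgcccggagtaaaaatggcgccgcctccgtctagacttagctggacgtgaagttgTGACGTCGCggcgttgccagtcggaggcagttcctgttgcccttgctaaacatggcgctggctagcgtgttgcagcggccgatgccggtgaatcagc
Psmb6: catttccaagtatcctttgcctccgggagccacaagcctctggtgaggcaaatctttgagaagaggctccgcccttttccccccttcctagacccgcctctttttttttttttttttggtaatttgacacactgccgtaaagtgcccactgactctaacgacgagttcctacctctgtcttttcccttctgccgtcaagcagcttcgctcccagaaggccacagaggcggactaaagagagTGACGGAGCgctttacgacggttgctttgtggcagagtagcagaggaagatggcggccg

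In the Psmb8 window the match TTCCCAGAA began 97 bases upstream of the gene start. The matches TGACGTCGC in Psmb5 and TGACGGAGC in Psmb6 began 47 and 9 bases upstream. Windows were at hand for 40 of the 48 proteasome genes and searched on both strands. TGACNNNGC was in 6 of the 40 (15%) and in 12.5% of 27025 gene windows of the same length. TTCNNNGAA was in 3 of the 40 (7.5%), against 8.47% of all windows. GAAANNGAA, the core of the interferon-stimulated response element, was in 6 of the 40 (15%), against 8.57% of all windows, among them Psme1, Psmb3 and Psmd4, and in 0 of the 3 immunoproteasome windows. CCAAT, the NF-Y box, was in 14 of the 40 (35%), against 37.9%. Matches to GAAANNGAA and TTCNNNGAA can overlap in part. A match describes letters and was not measured as binding.

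The activators that can replace the 19S particle differed little between the fractions. Psme1 and Psme2, the interferon-inducible PA28 alpha and beta subunits that often rise with the immunoproteasome, had smaller measured changes than Psmb8. Psme1 had signals of 4.21 and 4.45 in Venus-negative and 4.28 and 4.42 in Venus-positive cells, a change of 0.02 (95% interval -0.37 to 0.40), which turned to -0.01 under quantile normalization, to -0.10 without Venus-negative replicate 1 and to -0.05 without Venus-positive replicate 2. Psme2 had 5.45 and 5.62 against 5.33 and 5.54, a change of -0.10 (-0.48 to 0.29), and its second probe gave -0.10. Without Venus-negative replicate 2 the Psme2 change was -0.01, without Venus-positive replicate 1 it turned to 0.01, and without the other arrays it was -0.18 (Venus-negative replicate 1) and -0.20 (Venus-positive replicate 2). In both genes the fractions overlapped, and each interval stops short of the Psmb8 change of -0.91. That of Psme2 still overlaps the Psmb8 interval (-1.42 to -0.41), and that of Psme1 does not. RefSeq lists a near-identical copy, Psme2b, so the Psme2 signal may hold both.

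Psme3, the nuclear PA28 gamma activator, had 1.99 and 1.83 against 1.63 and 1.72, a change of -0.23 ± 0.11 SE (limma adjusted p = 0.315). Psme4, the PA200 activator, had 0.93 and 0.84 against 0.83 and 0.80, a change of -0.08 ± 0.10 SE, while its second probe gave -0.25, the widest gap between the probes of any of these genes. The first probe's change was -0.03 without Venus-negative replicate 1 and -0.12 without Venus-negative replicate 2. Psmf1, which encodes the proteasome inhibitor PI31, had 1.36 and 1.29 against 1.15 and 1.08, a change of -0.21 ± 0.10 SE (limma adjusted p = 0.304). Psme3, Psme4 and Psmf1 were separated downward, against 28.4% of all features. Their changes lay within the range of the core genes. Over the 5 genes the median was -0.10.

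The 7 assembly factors had a median change of -0.16, with 5 separated downward, against 28.4% of all features. Psmg1, which pairs with Psmg2 to start the alpha ring, had signals of 5.75 and 5.81 in Venus-negative and 5.54 and 5.55 in Venus-positive cells, a change of -0.23 ± 0.10 SE (limma adjusted p = 0.259), with a second probe at -0.21. Psmg2 was close to its partner at -0.20, and Psmg3 was at -0.16 and its partner Psmg4 at -0.01. Among the chaperones of the 19S base, Psmd10 (gankyrin) had 0.73 and 0.96 against 0.57 and 0.70, a change of -0.21 ± 0.14 SE (limma adjusted p = 0.413). It was -0.33 without Venus-negative replicate 1 and -0.10 without Venus-negative replicate 2. Psmd5 stood at -0.12 and Psmd9 at 0.02. The fractions overlapped for Psmg4 and Psmd9, and their signs were not stable: Psmg4 was at 0.06 with median centring and Psmd9 at -0.02 with quantile normalization and -0.01 with cyclic loess.

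Of the 11 proteasome genes with 2 probes, all had the same sign on both, with gaps of at most 0.17. RefSeq also lists pseudogenes of Psma5, Psmb5, Psmb6 and Psmb7, and whether these probes read them was not tested. The 2 other proteins in the pattern, Psmc3ip, a recombination factor, and Psme3ip1, a partner of PA28 gamma, had changes of -0.07 and -0.12 with overlapping fractions, which turned to 0.002 (Psmc3ip, Venus-positive replicate 2 dropped) and 0.04 (Psme3ip1, Venus-positive replicate 1 dropped).

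**Figure D4:**
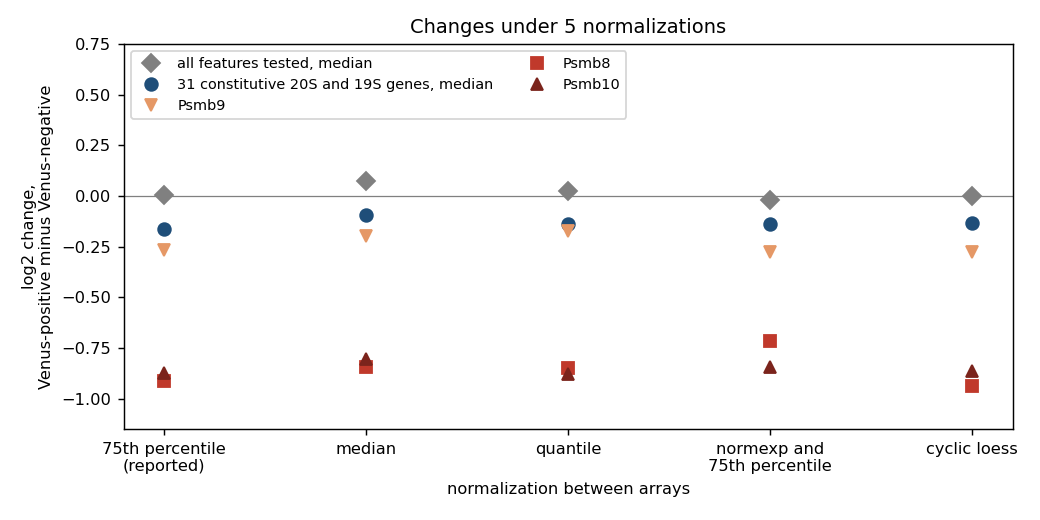
Log2 change between the fractions (vertical axis) under 5 normalizations between arrays (horizontal axis) for the median of all features, the median of the 31 constitutive 20S and 19S genes, and the 3 immunoproteasome genes. The constitutive median lies between -0.16 and -0.09 and below the median of all features in each, and Psmb8 lies between -0.94 and -0.71.

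Related genes outside the pattern came from 4 lists (other subunits, associated and shuttle genes, transcriptional control, and interferon and antigen presentation), and 0 of their tested members were called in limma. Of 3 further subunit or maturation genes, 0 passed an unadjusted p under 0.05: Sem1 and Adrm1, subunits of the 19S particle, had changes of -0.10 and -0.09, and Pomp, the maturation protein of the core, was given as 0.07 after its value was seen. Of 15 proteasome-associated and shuttle genes, 6 changes were negative and 9 positive (median 0.10), the largest being Ubqln1, a ubiquitin shuttle (-0.25), and Uchl5, a deubiquitinase of the 19S particle (0.24), and 0 passed an unadjusted p under 0.05. Over all features, 11.4% were lower and 12.3% higher at that p.

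The 7 genes that control proteasome gene transcription had a median of -0.02 and differed in direction. Nfe2l2, the NRF2 activator of stress-induced proteasome synthesis, had signals of 3.04 and 3.26 in Venus-negative and 3.61 and 3.68 in Venus-positive cells, a change of 0.49 ± 0.13 SE (limma adjusted p = 0.139). Ngly1, the deglycosylase that processes Nfe2l1, had low signals of -4.08 and -3.98 in Venus-negative and -3.67 and -3.46 in Venus-positive cells. They were still well above background in both fractions, and the change was 0.46 ± 0.13 SE (limma adjusted p = 0.151). Nfe2l1 itself, the main activator of constitutive proteasome genes after proteasome inhibition, and the partner Mafk, both named after their values were seen, had changes of -0.29 and -0.42. At an unadjusted p under 0.05, 1 of the 7 was lower and 2 were higher, against 11.4% and 12.3% of all features.

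Of 15 tested interferon and antigen presentation genes, 10 had a negative and 5 a positive change, with a median of -0.26. At an unadjusted p under 0.05, 1 was lower and 2 higher, against 11.4% and 12.3% of all features. Irf1, an interferon-induced activator known to drive Psmb8, Psmb9 and Psmb10, had signals of 1.76 and 1.29 in Venus-negative and 0.63 and 0.37 in Venus-positive cells, a change of -1.03 ± 0.22 SE (limma adjusted p = 0.109). Tap1, the peptide transporter that neighbours Psmb9, had -3.69 and -2.79 against -4.46 and -3.58, a change of -0.78 ± 0.47 SE (limma adjusted p = 0.393). The Tap1 fractions overlapped, and the Irf1 fractions did not. B2m, the light chain of MHC class I, went the other way at 0.52 (named after its value was seen, limma adjusted p = 0.223).

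Summed levels of markers of other cells are given beside these values, and their part in the changes of Psmb8 and Psmb10 was not tested. The summed signal of the 6 endothelial and Flk-1 sort markers, relative to each array's 75th percentile, ranged from 99.96 to 107.9 in Venus-negative and from 169 to 184 in Venus-positive cells, with 6 of 6 well above background, Kdr (Flk-1) included. Of all the marker genes tested, 1 was called in limma, the endothelial receptor Tek (1.53 ± 0.17 SE, adjusted p = 0.0479), named after its value was seen. The 8 stromal markers, which OP9 cells express, summed to 47.0 to 53.7 and 33.7 to 46.9, with 6 and 7 of 8 well above background on both arrays, and the 3 adipocyte markers to 5.77 to 12.5 and 5.07 to 8.61, where the fractions overlap. Of the 7 stromal markers tested, 5 changes were negative and 2 positive. Thy1 had the largest negative change, -1.60 (limma adjusted p = 0.128). Of the 2 positive, Col3a1 stood at 0.10, and the other marker was not well above background in Venus-negative cells. Of 7 blood markers 6 were on the array under their symbol and summed to 25.3 to 38.0 in Venus-negative and 23.7 to 24.6 in Venus-positive cells. Among them Ptprc (CD45), which defines white blood cells, was not well above background on any array. The other 5 were well above background in both fractions. Their changes were negative in 4 and positive in 1, the largest being those of Gata1 (-0.69) and Runx1 (-0.64). The 4 pluripotency markers summed to 3.34 to 4.51 and 1.91 to 1.92, and they did not move alike. Pou5f1 had a change of -2.38 (limma adjusted p = 0.0663), Sox2 of -0.23 and Zfp42 of -0.32, while Nanog went the other way at 0.23. Each of these sums is weighted to its brightest probes. The reporter gene Hoxb6 had a change of 1.01 ± 0.16 SE (limma adjusted p = 0.0717). Between 50.7% and 53.0% of spots were well above background on each array, and 0 were saturated.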

How the data were processed

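Gene expression was measured on 4 single-colour Agilent arrays (2 per fraction, 62976 spots each). The deposited scanner tables hold spot intensity values from Agilent Feature Extraction 10.10.1.1, background-subtracted and detrended within an array, per the file headers; their 0 or 1 flags mark spots that are outliers, saturated or well above background. The authors' value table also holds intensity on a linear scale, without gene centring: each column was the processed signal multiplied by a single factor (2.15, 2.44, 1.98 and 2.11), whose origin is not given in the sources used here. Column medians were 41.0, 42.3, 41.0 and 38.1.

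Control and outlier spots were left out, log2 signals were centred on each array's 75th percentile and spots of a probe averaged. A probe was kept if both arrays of a fraction had it well above background (27901 of 55681), and named by RefSeq accession (GRCm38.p6; 27235 probes had 1 symbol, 28446 none). A gene was read on its brightest probe, leaving 23548 features, 13926 of them genes. The test was limma 3.58.1 (R 4.3.3) on all 4 arrays without covariates, with 2 residual and 1.8 prior degrees of freedom. The pipeline was tested on simulated data with changes larger than any measured for the proteasome genes. That test does not show whether changes of their size would be found.

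Printed array values follow a fixed rule: the immunoproteasome and activator genes, Psmb5 to Psmb7, and the 2 largest changes of each role. Of related lists the 2 largest changes are named, with array values in the transcriptional control and interferon lists. A related gene dim in a whole fraction is not named. The ubiquitin gene list is not reported here. Members and lists were chosen with earlier results of these data known. Alternatives were median, quantile and cyclic loess normalization (the last chosen after seeing the data), normexp (offset 50, on median spot signals, as the planned mean signal column is not in these tables), dim probes kept, a signal-dependent variance prior, the mean of all probes, the authors' value table, a replicate block and leaving out each array.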

Additional observations from a re-analysis of the deposited data

How the results depend on the processing

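In none of the 13 alternatives was a proteasome gene called in either direction, 0 called also without each array in turn. The number of features called over the whole array was 726 with arrays centred on their median, 1285 with normexp, 1654 with a signal-dependent variance prior and 934 with the replicate block, against 503 as reported; with dim probes kept, or without any 1 array, it was 0, so those alternatives could call nothing. Of the called features 63.6% were lower as reported, 51.7% with median centring. With median centring the median change was -0.0877 for the 20S core, -0.0947 for the 19S particle and -0.0926 for the assembly factors. With quantile normalization the 20S core stood at -0.13 and the assembly factors at -0.21, and Psme1 at -0.0101. With cyclic loess the 20S core stood at -0.13. With normexp the difference of Psmb8 minus Psmb5 was -0.54. Without each array in turn, medians ranged from -0.19 to -0.14 (20S core), -0.20 to -0.15 (19S particle), -1.12 to -0.60 (immunoproteasome), -0.18 to -0.09 (activators and inhibitor) and -0.19 to -0.12 (assembly factors). The within-array differences ranged from -0.92 to -0.57 for Psmb8 minus Psmb5, -0.21 to 0.0439 for Psmb9 minus Psmb6 and -0.91 to -0.36 for Psmb10 minus Psmb7. Single genes ranged from -0.10 to 0.14 (Psme1), -0.20 to 0.0103 (Psme2), -0.29 to 0.0424 (Psme3ip1) and -0.15 to 0.00197 (Psmc3ip). The cause of these shifts was not tested. Same-numbered arrays deviated together (r = 0.414 over features), but 2 pairs do not establish pairing. With the replicate block the adjusted p in limma was 0.0711 for Psmb8 and 0.0509 for Psmb10. With 2 arrays per fraction, the intervals of the constitutive genes in the reported fit include 0, and their changes could not be told from 0 there. The standard errors depend on the variance prior. With the signal-dependent prior the SE went from 0.0960 to 0.0545 for Psmb5, from 0.0980 to 0.0674 for Psmb7 and from 0.145 to 0.125 for Psmd14. Their adjusted p in limma was then 0.146, 0.114 and 0.213.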
